A study of Homo sapiens with 11 samples.

Results

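ROS1 and SLC34A2 were followed in HCC78, a lung adenocarcinoma cell line in which a translocation joins the start of SLC34A2 to the kinase-coding end of ROS1. They were selected by gene name, 2 genes (ENSG00000047936.6 and ENSG00000157765.7) of the 57773 in the deposited expression table, together with every splicing event listed under either name. RNA-Seq was available for 9 libraries, and the study asked what the S34F substitution in the splicing factor U2AF1 does to RNA in cells that also carry a ROS1 fusion. The transduced cells carried a doxycycline-inducible lentiviral construct for tagged U2AF1, either wild-type (WT) or S34F, and were grown with the inducer (WT dox+, S34F dox+) or without it (WT dox-, S34F dox-). There were 2 libraries of WT dox+, 2 of WT dox-, 2 of S34F dox+, 1 of S34F dox- and 2 of the parental line, which received no construct.

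Every group shares the endogenous S34F allele of HCC78 and the ROS1 fusion. The sample labels give S34F as 32% of U2AF1 mRNA in both parental libraries, 33% in both WT dox- libraries and 28% in S34F dox-. With the inducer, the share was 12% and 14% in the wild-type line and 62% and 65% in the S34F line. Each construct was studied in stable subclones made after transduction, so construct, subclone and transduction cannot be told apart. The sample titles give the parental libraries as grown without doxycycline, whereas a supplement of the study lists them with it. Nothing in the labels says that replicates were separate cultures, so p-values measure only the spread between these libraries, which may be technical.

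ROS1 encodes a receptor tyrosine kinase of the insulin receptor family, and the adult lung has little of it. SLC34A2 encodes NaPi-IIb, a sodium-dependent phosphate cotransporter at the apical surface of alveolar type II cells and of many lung adenocarcinomas. In the fusion, the SLC34A2 promoter drives an RNA that begins with SLC34A2 exons and continues with ROS1 exons coding for the kinase. Alternative acceptor use at the junction gives a long and a short fusion isoform. A gene-level value sums all RNA assigned to a gene, so fusion RNA adds to both genes, and the rearranged and the intact alleles cannot be separated in these values.

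The sequences around the annotated start sites are shown because the fusion places the ROS1 kinase exons downstream of an SLC34A2 start. They come from RefSeq on GRCh38.p14, cover 250 bases before to 50 bases after the start, and are written 5′ to 3′ on the strand of the gene. Capitals mark matches on either strand to any of 6 motifs, and no matches overlapped. The motifs of general promoters were the TATA box, searched as TATAAA, the GC box, with the letters GGGCGG, and the CCAAT box, by those letters alone. The binding motifs of factors were the E-box, searched as CACGTG, the AP-1 site, with the letters TGANTCA, and the core of the NKX2-1 motif, given by CAAGTG. SLC34A2 had 2 entries, both on the plus strand of chromosome 4, at chr4:25655601-25655900 and chr4:25656214-25656513. ROS1 had 1 entry, on the minus strand at chr6:117425893-117426192.
SLC34A2 upstream start: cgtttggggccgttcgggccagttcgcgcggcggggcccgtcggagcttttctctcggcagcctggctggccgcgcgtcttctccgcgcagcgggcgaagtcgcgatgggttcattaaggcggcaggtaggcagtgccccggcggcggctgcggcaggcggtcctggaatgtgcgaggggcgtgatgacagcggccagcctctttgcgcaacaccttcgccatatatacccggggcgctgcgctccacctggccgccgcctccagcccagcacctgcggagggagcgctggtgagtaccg
SLC34A2 downstream start: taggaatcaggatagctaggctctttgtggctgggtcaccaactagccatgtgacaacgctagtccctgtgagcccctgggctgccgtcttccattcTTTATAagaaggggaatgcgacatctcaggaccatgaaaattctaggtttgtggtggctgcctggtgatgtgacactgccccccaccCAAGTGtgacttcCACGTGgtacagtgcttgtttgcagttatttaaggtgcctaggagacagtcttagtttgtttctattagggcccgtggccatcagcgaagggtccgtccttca
ROS1 start: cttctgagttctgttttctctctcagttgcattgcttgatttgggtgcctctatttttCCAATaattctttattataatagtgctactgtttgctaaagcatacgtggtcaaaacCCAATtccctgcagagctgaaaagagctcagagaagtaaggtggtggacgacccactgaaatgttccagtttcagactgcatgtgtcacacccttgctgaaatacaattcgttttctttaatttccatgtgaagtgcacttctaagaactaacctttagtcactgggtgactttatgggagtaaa
The upstream SLC34A2 sequence was 70.7% G and C with 38 CpG dinucleotides and held none of the 6 motifs as searched. It has the letters tatata, which the search for TATAAA does not count. The downstream SLC34A2 sequence was 51.7% G and C with 7 CpG. It held a TATA box on the opposite strand, at base 98 of 300, an E-box and an NKX2-1 core. The ROS1 sequence was 40.0% G and C with 3 CpG and held 2 CCAAT boxes. Over all 35116 promoter sequences of that length, the median was 58.7% G and C with 14 CpG. A TATA box was found in 11.5% of them, a CCAAT box in 34.6%, a GC box in 45.0%, an E-box in 7.26%, an AP-1 site in 7.71% and an NKX2-1 core in 11.5%. These matches are descriptions of the letters, and SLC34A2 and ROS1 had no motif in common.

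ROS1 had a higher level in the parental line than in any transduced library. Its FPKM (fragments per kilobase of gene, scaled to the fragments of the library) was 26.09 in the first parental library and 37.81 in the second. The WT dox- libraries had 14.23 and 15.9, the WT dox+ libraries 15.06 and 13.98, the S34F dox- library 17.09 and the S34F dox+ libraries 15.71 and 8.63, with replicate 1 first. The 7 transduced libraries thus ranged from 8.63 to 17.09, and the highest of them lay below the lower parental library, which was 1.53 times as high. S34F dox+ replicate 2 was the lowest of all libraries, and its partner replicate was 1.82 times as high.

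SLC34A2, the source of the fusion promoter, showed the same separation at a higher level. Its FPKM was 114.69 in the first parental library and 165.51 in the second. The WT dox- libraries had 58.07 and 70.51, the WT dox+ libraries 56.9 and 53.91, the S34F dox- library 53.77 and the S34F dox+ libraries 55.48 and 40.11. The transduced libraries ranged from 40.11 to 70.51, and S34F dox+ replicate 2 was again the lowest. Within the parental pair, replicate 2 exceeded replicate 1 by 1.44 times for SLC34A2 and by 1.45 times for ROS1.

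**Figure D1:**
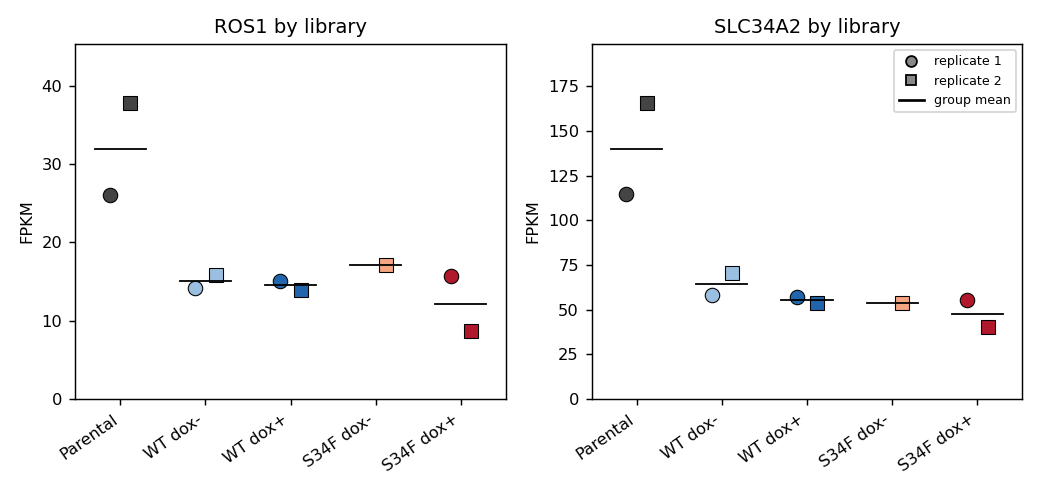
FPKM of ROS1 (left) and SLC34A2 (right) in each of the 9 libraries by group, with circles for replicate 1, squares for replicate 2 and lines for group means. Both parental libraries lie above all 7 transduced libraries for each gene, at 26.09 and 37.81 for ROS1 and 114.69 and 165.51 for SLC34A2.

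Averaged over the 4 transduced groups, FPKM was 14.7 for ROS1 and 55.3 for SLC34A2, or 46.0% and 39.5% of the parental means of 32.0 ± 8.29 (SD, n = 2) and 140.1 ± 35.9 (SD, n = 2). On the log2(FPKM + 1) scale, the difference between transduced and parental cells was -1.07 for ROS1 (SE 0.22, 95% interval -1.58 to -0.55) and -1.32 for SLC34A2 (SE 0.17, 95% interval -1.72 to -0.91). Fewer cells of a kind and less RNA per cell cannot be told apart in bulk RNA. In the limma fit over all 15179 genes tested, the unadjusted p was 0.00151 for ROS1 and 8.57e-05 for SLC34A2. After Benjamini-Hochberg adjustment, limma gave 0.131 for ROS1 and 0.0553 for SLC34A2, so 0 of the 2 genes passed the threshold of 0.05, while both did at an unadjusted p. Across the genome, 17 genes passed (0.112% of those tested), 8 higher and 9 lower in transduced cells. At an unadjusted p under 0.05, 834 (5.49%) were lower and 1044 were higher. By size of decrease, SLC34A2 stood 92nd and ROS1 142nd of the genes tested. SLC34A2 passed in limma when only protein-coding genes were tested (adjusted p 0.00856), when the minimum mean was 5 FPKM (0.0373) or when the S34F dox- library was left out (0.0472). Without Parental replicate 2, its difference was -1.05 and the limma adjusted p 0.33.

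For both genes, all 7 transduced libraries lay below both parental libraries, as they did for 707 of the genes tested (4.66%). Those that also differed by at least 1 log2 unit numbered 50 (0.329%), and ROS1 and SLC34A2 were among them. In a two-sided exact permutation test over libraries, each gene alone gave p = 0.0556. Here a two-sided p is 2 times the smaller one-sided p. Under this rule, 0.0556 is the smallest value for 7 against 2 libraries.

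Without any inducer, the level of both genes was also below that of the parental line. WT dox- and S34F dox- together differed from the parental libraries by -0.93 for ROS1 (SE 0.26, limma adjusted p = 0.199) and by -1.22 for SLC34A2 (SE 0.20, limma adjusted p = 0.0779) on the log2 scale. At an adjusted p under 0.05, 37 genes passed in that comparison (0.244%) and neither ROS1 nor SLC34A2 did. The unadjusted p was 0.00726 for ROS1 and 0.00037 for SLC34A2, and 6.86% of genes were lower with an unadjusted p under 0.05. SLC34A2 passed among protein-coding genes (limma adjusted p = 0.0209). This comparison shares the parental libraries with the one above.

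U2AF1, the induced gene, was higher in every induced library than in the others, and in the wild-type line the levels of ROS1 and SLC34A2 differed little with and without the inducer. U2AF1 FPKM was 277.6 and 299.05 with the wild-type construct induced and 164.44 and 222.76 with the S34F construct induced. The 5 libraries without induction were between 102.76 and 115.06. From WT dox- to WT dox+, U2AF1 was higher by 1.37 log2 units (SE 0.15, limma adjusted p = 0.0506). ROS1 differed by -0.05 in the same comparison (95% interval -0.68 to 0.59, limma adjusted p = 0.961), and SLC34A2 by -0.20 (95% interval -0.70 to 0.29, limma adjusted p = 0.699). Without WT dox- replicate 1 or replicate 2, SLC34A2 differed by -0.34 or -0.07, and ROS1 by -0.12 or 0.026. In that comparison 2 genes passed (0.0132%). A p above the threshold does not show equal levels, and the intervals give the differences that remain possible.

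S34F dox+ and WT dox+ cells, which differ most in the share of S34F in U2AF1 mRNA, overlapped in the level of both genes. Between them, ROS1 differed by -0.29 log2 units (95% interval -0.93 to 0.35) and SLC34A2 by -0.23 (95% interval -0.73 to 0.27), each with a limma adjusted p of 0.883. In total 8 genes passed (0.0527%), and ROS1 and SLC34A2 had unadjusted p of 0.321 and 0.323. The sign rested on S34F dox+ replicate 2: without that library the differences were 0.11 and 0.00, and without replicate 1 they were -0.69 and -0.46. S34F dox+ replicate 2 also listed 20896 genes at 1 FPKM or above, against 13661 to 17716 in the other libraries, and the part of this in the result was not tested. The difference between the doxycycline responses of the S34F and WT lines was -0.46 for ROS1 (SE 0.43) and 0.02 for SLC34A2 (SE 0.34), with a limma adjusted p of 1.0 for both. For ROS1 it was -0.07 without S34F dox+ replicate 2 and -0.86 without replicate 1 (unadjusted p 0.0456, limma adjusted p 0.711). For SLC34A2 it was 0.25 and -0.21 without the same libraries. It rests on 1 S34F dox- library, and 4 genes passed (0.0264%).

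**Figure D2:**
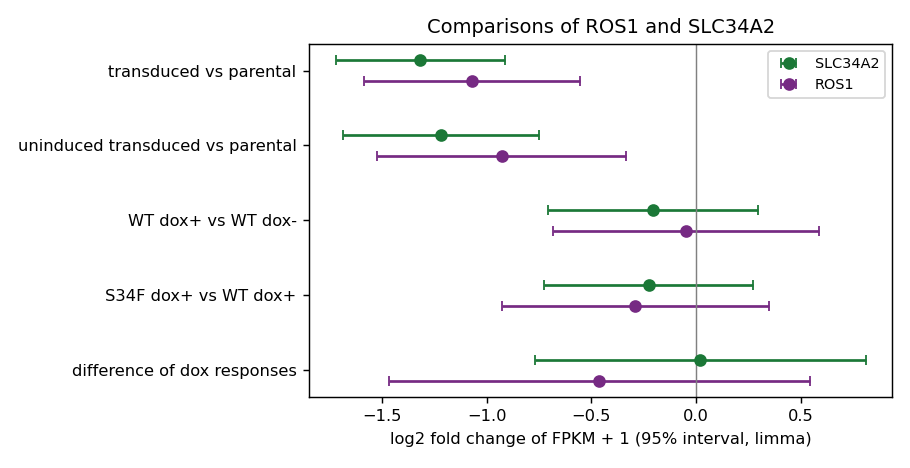
Differences of ROS1 and SLC34A2 in 5 comparisons, as log2 fold changes of FPKM + 1 with 95% intervals from limma, where the vertical line marks 0. The intervals for transduced and for uninduced transduced cells against parental cells lie below 0 for both genes, and those of the other 3 comparisons include 0.

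The order of the group means below the parental line was not the same for the genes. For ROS1 it ran from S34F dox- (17.09, n = 1) through WT dox- (15.1 ± 1.18, SD, n = 2) and WT dox+ (14.5 ± 0.764, SD, n = 2) to S34F dox+ (12.2 ± 5.01, SD, n = 2). For SLC34A2 it ran from WT dox- (64.3 ± 8.80, SD, n = 2) through WT dox+ (55.4 ± 2.11, SD, n = 2) and S34F dox- (53.77, n = 1) to S34F dox+ (47.8 ± 10.9, SD, n = 2). The largest step between neighbours in either order was that from the parental line. Of the lower steps, WT dox- to WT dox+ and, for ROS1, WT dox+ to S34F dox+ were tested, and neither passed.

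The FPKM of ROS1 can be set against that of SLC34A2 in each library, and the scaling of the library cancels. FPKM is scaled to the length of the annotated gene, whereas fusion RNA covers only part of each gene. The ratio therefore serves to compare libraries and does not give the number of ROS1 RNAs for each SLC34A2 RNA. ROS1 was 22.7% and 22.8% of SLC34A2 in the parental libraries. The WT dox- libraries had 24.5% and 22.6%, the WT dox+ libraries 26.5% and 25.9%, the S34F dox- library 31.8% and the S34F dox+ libraries 28.3% and 21.5%. The parental libraries were nearly equal in this ratio although their levels differed by 1.45 and 1.44 times. Transduced libraries lay on both sides of them, and the S34F line held both the highest and the lowest ratio. The mean log2 ratio was 0.17 higher in transduced cells, with p = 0.333 in a two-sided exact permutation test of 36 regroupings, whose smallest p is 0.0556. Between S34F dox+ and WT dox+ the exact permutation test gave p = 1.0, with 0.333 the smallest it can give. As the two-sided p was computed here, neither of these comparisons could reach p under 0.05.

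**Figure D3:**
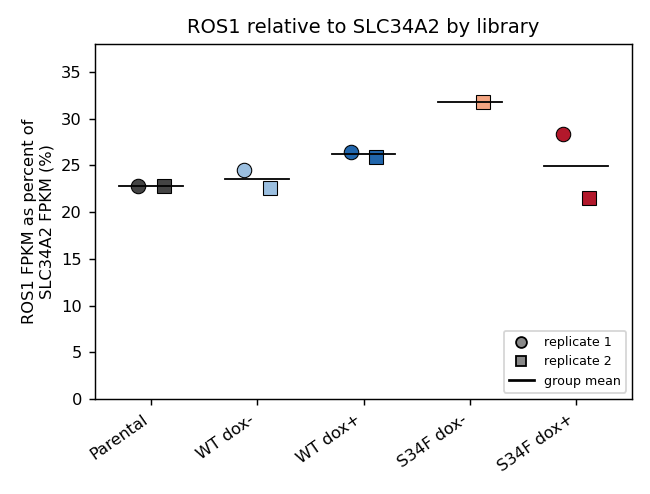
ROS1 FPKM as a percentage of SLC34A2 FPKM by library and group, with circles for replicate 1, squares for replicate 2 and lines for group means. The parental libraries lie at 22.7% and 22.8%, and the transduced libraries range from 21.5% to 31.8%.

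Of the 10023 other genes whose FPKM averaged 5 or more, the one whose profile over the 9 libraries was most like that of ROS1 was SLC34A2, and the one most like SLC34A2 was ROS1. The measure was the root mean square difference of log2(FPKM + 1) after each gene was centred on its mean, which was 0.169 between ROS1 and SLC34A2 against medians of 0.567 and 0.623 over all genes. The next for ROS1 were C1orf21 (0.207), SNORA79 (0.253), SH3BP1 (0.256) and SNORA8 (0.266). The next for SLC34A2 were MMP7, a secreted matrix metalloproteinase (0.245), C1orf21 (0.250), CALB2, the calcium-binding protein calretinin (0.294), and SNORA8 (0.322). SNORA79 and SNORA8 are small nucleolar RNAs.

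The likeness depended on the parental libraries being included. Over the 7 transduced libraries alone, SLC34A2 was 119th in likeness to ROS1 and ROS1 552nd in likeness to SLC34A2 of the same genes. With any single library left out of the 9, SLC34A2 was 1st or 2nd for ROS1 and ROS1 between 1st and 3rd for SLC34A2. Without Parental replicate 2 the ranks were 2 and 3, and without S34F dox+ replicate 2 they were 2 and 1.

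No gene beside ROS1 or SLC34A2 on its chromosome was lower in transduced cells by a similar amount. The neighbours taken were the 5 nearest genes on each side whose FPKM averaged 1 or more, in the order of RefSeq genes. Among the 10 neighbours of ROS1, 0 passed in transduced against parental cells, and the median difference was 0.15 log2 units (range -0.11 to 0.72). At an unadjusted p under 0.05, 2 were higher. They were CEP85L, by 0.72 (SE 0.29, limma adjusted p = 0.366), and DSE, by 0.47 (SE 0.10, limma adjusted p = 0.136). DCBLD1 differed by 0.30 (SE 0.23) and GOPC, a Golgi protein that is itself a ROS1 fusion partner in other tumours, by 0.01 (SE 0.11). Among the 10 neighbours of SLC34A2, 0 passed, also at an unadjusted p, and the median was -0.02 (range -0.18 to 0.30). SEL1L3, the nearest after SLC34A2, differed by -0.18 (SE 0.11) and ANAPC4, a subunit of the anaphase-promoting complex and the nearest before it, by -0.11 (SE 0.11). The median over all genes tested was 0.03, and 1044 of those 15179 genes were higher at an unadjusted p under 0.05.

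**Figure D4:**
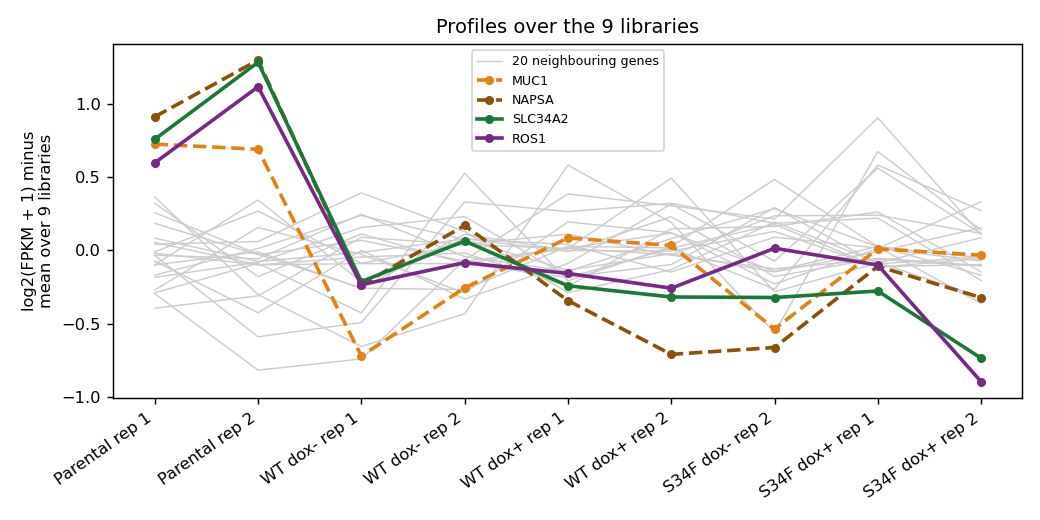
Profiles over the 9 libraries, as log2(FPKM + 1) minus the mean of each gene, for ROS1, SLC34A2, MUC1 and NAPSA and for the 20 neighbours of ROS1 and SLC34A2 (grey). The 4 named genes are highest in both parental libraries, and ROS1 and SLC34A2 are lowest in S34F dox+ replicate 2.

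Receptors of the same family were mostly under the minimum for testing. IGF1R, the insulin-like growth factor receptor, had FPKM between 9.33 and 18.06 over the transduced libraries and 13.2 and 15.05 in the parental line, a difference of -0.09 (SE 0.17, limma adjusted p = 0.863). ALK, LTK, INSR and INSRR had means under 1 FPKM and were not tested. C4orf48, the more abundant member of the ligand list, had 22.21 and 27.01 FPKM in the parental line and 14.67 to 41.64 in transduced cells, a difference of -0.04 (SE 0.19, limma adjusted p = 0.948). In S34F dox+ against WT dox+ it differed by 1.04 (SE 0.23, unadjusted p 0.00212, limma adjusted p = 0.442). NELL2, a secreted ligand of ROS1, was near the minimum, with 0.43 and 0.42 FPKM in the parental line and 0.11 to 2.47 in transduced cells. In all, 0 of the 2 genes on the ligand list passed in transduced against parental cells or in S34F dox+ against WT dox+.

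The lists of signalling genes downstream of the kinase had medians near 0. Of 10 adaptors and phosphatases tested, 0 passed in transduced against parental cells, with a median of 0.05 log2 units, and the unadjusted p was under 0.05 for 1 that was higher and 1 that was lower. The adaptors SHC1 and GRB2 differed by -0.21 (SE 0.08) and 0.07 (SE 0.12), and PTPN11, the phosphatase SHP2, by 0.21 (SE 0.09). Of 18 effectors of the RAS, PI3K and STAT3 pathways, 0 passed, 2 were higher at an unadjusted p, and the median was 0.01. These are RNA levels, and the activity of the kinase was not measured here. Of the 14 other genes known as ROS1 fusion partners, 0 passed, with differences from -0.21 to 0.34. An unadjusted p under 0.05 was found for 1 higher, MSN (0.34, SE 0.08, limma adjusted p = 0.162), and 1 lower, CCDC6 (-0.21, SE 0.09, limma adjusted p = 0.387). The most abundant of the 14 were TPM3 (0.03, SE 0.09), EZR (0.03, SE 0.09) and CD74, the invariant chain and a common ROS1 partner (-0.14, SE 0.09). Over all 15179 genes tested, 1044 were higher and 834 lower in transduced cells at an unadjusted p under 0.05. In S34F dox+ against WT dox+, 0 genes of these lists passed. The largest differences in either direction were those of the adaptor GAB1, at 1.10 (SE 0.19, limma adjusted p = 0.297), and of CD74, at -0.67 (SE 0.12, limma adjusted p = 0.297). Without the inducer, GAB1 had 6.97 FPKM in the S34F dox- library and 3.36 and 3.57 in the WT dox- libraries. CD74 had 188.15 FPKM in the S34F dox- library and 203.85 and 238.9 in the WT dox- libraries.

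Among the phosphate transporters looked at here, SLC34A2 had the highest FPKM in each library. In S34F dox+ replicate 2 it was only just above SLC20A2 (40.11 against 39.22). SLC20A2, SLC20A1 and the phosphate exporter XPR1 differed between transduced and parental cells by 0.27 (SE 0.12), 0.12 (SE 0.10) and 0.13 (SE 0.12), and none of the 3 passed in limma (adjusted p = 0.419, 0.676 and 0.711). In the uninduced comparison, SLC20A1 differed by 0.28 (SE 0.12, limma adjusted p = 0.361). SLC34A1 and SLC34A3, the kidney-type relatives, had means under 1 FPKM.

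The label of a lung epithelial line was checked against markers. The summed FPKM of 12 lung epithelial markers was between 8710 and 11680 over the libraries, with KRT7, KRT19 and KRT8 the most abundant (means of 3667, 1986 and 1944). NKX2-1, the lung lineage factor, had 67.8 and 61.28 FPKM in the parental line and 49.05 to 62.33 in transduced cells. The surfactant genes SFTPB and SFTPC, which mark alveolar type II cells, were at 2.05 FPKM or below in every library. The sums were at most 13.4 FPKM for 6 fibroblast markers, 5.1 for 4 haematopoietic and 1.86 for the 2 endothelial markers analysed here.

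Within the lung epithelial list, MUC1 and NAPSA also had higher FPKM in both parental libraries than in any transduced library. MUC1, a membrane mucin, had 373.52 and 364.41 FPKM in the parental line and 136.56 to 239.37 in transduced cells. It fell in uninduced transduced cells by 1.22 log2 units (SE 0.14, limma adjusted p = 0.0238), the only 1 of 10 tested list members to pass there, and differed over all transduced cells by -0.95 (SE 0.12, limma adjusted p = 0.0504). NAPSA, the aspartic protease napsin A of type II cells, had 7.39 and 9.97 FPKM in the parental line and 1.73 to 4.02 in transduced cells, a difference of -1.46 (SE 0.21, limma adjusted p = 0.0734). The median of the 10 tested markers was -0.08, near that of all genes. Over all transduced cells 0 of the 10 passed. An unadjusted p under 0.05 was found for 1 that was higher and 3 that were lower, against 1044 and 834 of all 15179 genes. The 1 higher was KRT7, the most abundant of the list, with 3370.7 and 2872.82 FPKM in the parental line. Transduced cells had 3488.25 to 4195.52, so its separation was opposite to that of MUC1 and NAPSA. KRT7 differed by 0.30 (SE 0.09, limma adjusted p = 0.282).

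For splicing, 1 comparison of cells overexpressing S34F or wild-type U2AF1 was available, without replicates, as percent spliced in (PSI, the fraction of RNA that has the first listed form of an event) with a Bayes factor for a difference. ROS1 had 6 events and SLC34A2 had 2, of 92662 events over all genes. ROS1 (hg19, chromosome 6, 117609463 to 117747018, minus strand) had 1 alternative 3′ splice site, 2 alternative 5′ splice sites, 2 NAGNAG acceptors (tandem acceptors 3 bases apart) and 1 skipped exon. SLC34A2 (hg19, chromosome 4, 25657466 to 25680370, plus strand) had 1 NAGNAG acceptor and 1 skipped exon, and neither gene had a retained intron. These positions are on hg19, an earlier build than that of the start-site sequences, and were not converted.

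At the thresholds of the study (a PSI difference of at least 0.10, a Bayes factor of at least 5 and at least 10 reads), 0 of the 8 events passed, against 1034 of 87763 events with that many reads listed (1.18%). The listed reads of ROS1 and SLC34A2 were nearly the same at every event of a gene, so this minimum did not measure reads at an event. A Bayes factor of 20, a difference of 0.20 and 10 reads in each condition were stricter settings, under which the count could only stay at 0. Under them 0.447% to 1.17% of all events passed. A PSI difference of 0.10 or more, whatever the Bayes factor, was listed for 3 of the 8 events, all of ROS1, against 32.9% of all events. The largest Bayes factor was 1.5, at the alternative 5′ splice site 36.4 kb from the start of ROS1, with variable ends at 117710513 and 117710727, where PSI was 0.69 in S34F and 0.91 in wild-type cells. The NAGNAG acceptors of ROS1 came next. At 117687456 and 117687453, PSI was 0.48 and 0.59 (Bayes factor 1.27), and at 117674332 and 117674329 it was 0.49 and 0.57 (Bayes factor 1.01). The alternative 3′ splice site of ROS1 had a PSI that was 0.82 in S34F cells and 0.70 in wild-type cells (Bayes factor 0.54), and the skipped exon 13.8 kb from the start had 0.26 in both (0.57). The number of reads that told the forms of an event apart is not known. These PSI values are estimates that may rest on few such reads.

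The event nearest the 3′ end of ROS1 was the other alternative 5′ splice site, 104.6 kb from the start (76.1% of the gene length), whose ends at 117642380 and 117642422 differ by 42 bases. Its PSI was 0.99 in S34F and 0.98 in wild-type cells (Bayes factor 0.04). The events were not placed relative to the fusion junction, which needs an exon annotation on hg19, so the choice of long or short fusion isoform was not analysed here. For SLC34A2, the NAGNAG acceptor at 25664327 and 25664330 had a PSI that was 0.58 in S34F cells and 0.61 in wild-type cells (Bayes factor 0.26). The skipped exon of SLC34A2 had 0.01 and 0.00 (Bayes factor 0.0). None of the SLC34A2 differences reached 0.10.

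**Figure D5:**
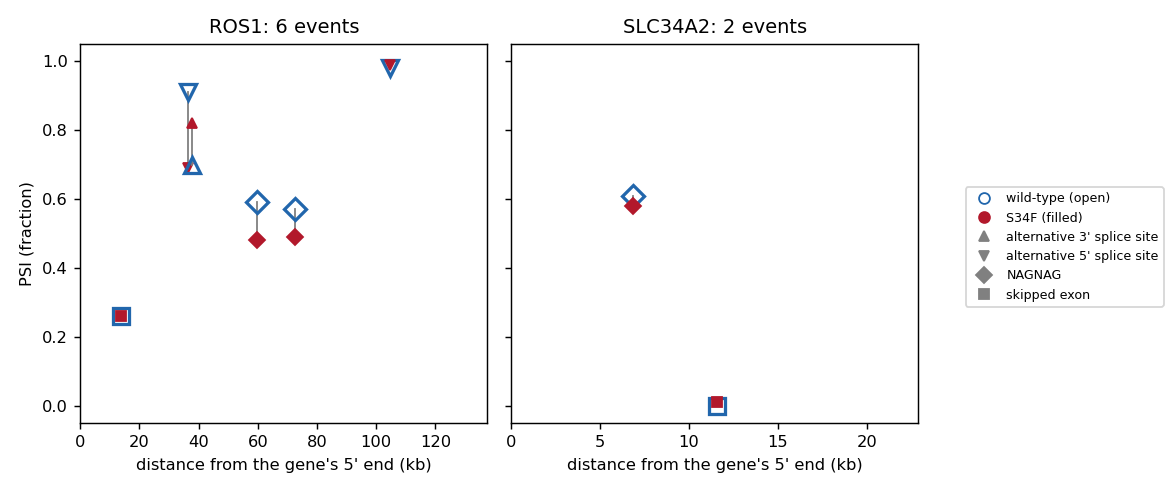
PSI of the 6 ROS1 events and 2 SLC34A2 events against distance from the 5′ end of the gene in kb, with open symbols for wild-type, filled symbols for S34F and a shape for each type of event. The widest gap is at 36.4 kb in ROS1 (0.69 and 0.91, Bayes factor 1.5), and 0 of the 8 events passed the thresholds. The reads behind each PSI are not known.

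The reads listed with the events were nearly the same at every event of a gene, 777 or 778 in S34F against 1392 to 1397 in wild-type cells for ROS1, and 1456 against 2704 and 1433 against 2667 for SLC34A2. They therefore do not give the number of reads at a single junction. S34F held 35.8% of the ROS1 reads (95% Wilson interval 33.8 to 37.8 at the skipped exon) and 35.0% of the SLC34A2 reads (33.6 to 36.5 at the NAGNAG acceptor), and these intervals cover counting error only. The median over 11448 genes with at least 100 reads was 40.6%, and 7.27% and 5.28% of genes had a lower share than ROS1 and SLC34A2. How libraries were combined in that comparison is not given in the sources used here, so these shares carry no error between replicates.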

How the data were processed

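RNA-Seq reads were trimmed and aligned to the human genome with STAR 2.3.0, and the authors computed FPKM and TPM per gene with RSEM 1.2.29. The deposited table lists FPKM and TPM values of 57773 genes in 9 libraries and no counts, so the depth of each library is unknown. For splicing, the authors ran MISO on hg19 events of 5 kinds, and the deposited tables give PSI as a fraction, the Bayes factor as a score and read counts for each condition. The PSI of S34F was taken as the first column, by the order in which the tables name the conditions. PSI differences were recomputed from the deposited values, and the authors' column of differences was not used.

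ROS1 and SLC34A2 and the gene lists were chosen with earlier results of these data known. For expression, log2(FPKM + 1) was fitted by limma-trend (limma 3.58.1, R 4.3.3) for 15179 genes whose FPKM averaged 1 or more. The 5 groups were fitted together without covariates, two-sided, with Benjamini-Hochberg adjustment over all genes tested. This scale understates fold changes of low genes. In data simulated for transduced against parental cells with 15179 genes, 68 of 100 genes changed by 1 log2 unit and 94 of 100 changed by 2 were recovered, with 11 false calls. The changed genes were drawn from those with a mean log2(FPKM + 1) above 2, and the simulated noise was normal and independent between libraries. Recovery in the real data may therefore be lower. The ratio was tested by exact permutation in Python 3.11.15, with the two-sided p taken as 2 times the smaller one-sided p.

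Genes named from lists were those past the threshold and otherwise those of highest mean FPKM. NAPSA, NKX2-1, the surfactant genes, DSE, CEP85L, MSN, CCDC6 and, as the extremes of their comparison, GAB1 and CD74 were named after their values were seen. The difference of KRT7 was also added then. Alternatives were the pseudocount, the minimum FPKM, TPM, scaling, protein-coding genes only, a replicate block, pooling of transduced libraries, each library left out and the thresholds on events.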

Additional observations from a re-analysis of the deposited data

How the results depend on the processing

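Differences are in log2(FPKM + 1). Transduced against parental and uninduced transduced against parental kept their negative direction for ROS1 and SLC34A2 under all 18 alternatives each. SLC34A2 passed the threshold at -1.32 with protein-coding genes only and with a minimum mean of 5 FPKM, both of which test fewer genes, and at -1.22 in uninduced cells with protein-coding genes only. With 1 library left out, SLC34A2 ranged from -1.58 to -1.05 and ROS1 from -1.33 to -0.81, the ends being without Parental replicate 1 and without Parental replicate 2. Uninduced, they ranged from -1.48 to -0.96 and from -1.19 to -0.67.

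With 1 library left out, S34F dox+ against WT dox+ ranged from -0.69 to 0.11 for ROS1 and from -0.46 to 0.0024 for SLC34A2. WT dox+ against WT dox- ranged from -0.12 to 0.026 for ROS1 and from -0.34 to -0.07 for SLC34A2. The difference of responses ranged from -0.86 to -0.07 for ROS1 and from -0.21 to 0.25 for SLC34A2, where it also turned to -0.13 with TPM and -0.014 with median-ratio scaling. None of these values passed in limma after adjustment, and the cause of the turns was not tested. TPM moved the median of all genes to 0.11 in transduced against parental cells, against 0.03 with FPKM. The mean log2 ratio stayed higher in transduced than in parental cells, by 0.12 to 0.21 with 1 library left out. As its two-sided p was computed here, the exact permutation test of the ratio could give no call under any alternative. So computed, the smallest p is 0.0556 with all libraries and larger with fewer, which is above the threshold. The alternatives for the events were stricter than the main setting, so their count of 0 could not change.

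The replicate numbers did not pair the samples (correlations of deviations between -0.076 and 0.037). With a replicate block, transduced against parental was -1.06 for ROS1 and -1.32 for SLC34A2 (limma adjusted p 0.216 and 0.13), and no call of either gene changed. Genes past the threshold in that comparison numbered 11 with the block, 66 among protein-coding genes, 2 without a minimum FPKM, 5 with transduced libraries pooled and 4 to 35 with 1 library left out. They ranged from 3 to 148 for uninduced cells, 1 to 29 for S34F dox+ against WT dox+, 0 to 32 for WT dox+ against WT dox- and 0 to 33 for the responses. The values carry no counts, so the depth behind them is unknown. In the likeness of profiles, TPM, the 7 transduced libraries and single libraries left out were tried after seeing the data.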
